A study of Nicotiana tabacum with 8 samples.

Results

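Brassinosteroids are plant steroid hormones that promote cell elongation and division in young shoots, and mutants that cannot make or sense them are dwarfed. The hormone is made from plant sterols through a chain of reduction and oxidation steps. It is then perceived at the cell surface by a receptor kinase, and the signal releases transcription factors that switch growth genes on and, in Arabidopsis, switch hormone synthesis genes off. The 5 genes described here sit along this route and were chosen by their tomato Solyc numbers, out of 34725 coding sequences listed. DET2 (Solyc10g086500) encodes a steroid reductase of an early step. DWARF, also called CYP85A1 (Solyc02g089160), and CYP85A3 (Solyc02g065750) are related cytochrome P450 enzymes of the last oxidation steps. BRI1 (Solyc04g051510) encodes the receptor kinase, and BZR1 (Solyc04g079980) a transcription factor at the end of the signaling chain.

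RNA was sequenced from tobacco (Nicotiana tabacum cv. Samsun) shoot tips carrying the apical meristem and the terminal leaves, in 4 TC09-exposed libraries (numbers 13 to 16) and 4 control libraries (numbers 9 to 12). Seedlings were 6 days old when they were moved to vessels and were sampled 10 days later. TC09 is a strain of the fungus Cladosporium sphaerospermum, and exposed seedlings shared the vessel headspace with its culture and thus its volatile compounds, while controls had no fungus. All seedlings grew on Murashige and Skoog medium with sucrose at 30 g/L, at 25°C with 16 h of light. The treatment text of the labels describes culture without exposure for every library, so the groups rest on the source name and the exposure tag. The labels describe a tube of tissue from the 3 seedlings of a vessel, whereas the methods of the study speak of plants, and p-values measure only the spread between these libraries.

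Reads were counted by the authors on tomato coding sequences, and each Solyc number therefore names a tomato gene on which tobacco reads landed. Copies of a gene in the tobacco genome that resemble the same tomato gene are counted together, and no Solyc number is matched to a tobacco gene in the sources used here. Libraries held between 7853857 and 9674090 total gene reads. Exposed library 14 stood apart from its group. Its counts gave a chi-square of 17.2 to 31.7 per degree of freedom against the other exposed libraries, which gave 6.43 to 9.28 among themselves, and the controls gave 6.01 to 14.4. Log2 fold changes of single genes that rest on library 14 are given with and without it, whereas mean TPM is given only with it. In tissue made of many cell types, more transcript per cell and more cells that carry the transcript cannot be told apart.

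Exposure to TC09 was accompanied by higher transcript levels of a synthesis gene and a signaling gene. Transcripts of DWARF, the late synthesis enzyme, rose 2.31-fold and those of BZR1, the transcription factor, rose 1.64-fold. DET2 and BRI1 did not pass the test, with ratios of 1.06 and 1.20, and CYP85A3 was below the minimum read count of the test. Thus 2 of the 5 genes were called higher and none lower, with an adjusted p of at most 0.05 (edgeR quasi-likelihood test, Benjamini-Hochberg over the 19325 genes tested). Over all genes tested, 9.56% were called higher and 12% lower. The 4 exposed libraries were all above the 4 controls in the same 2 genes, a pattern found in 11.5% of all genes tested. With so few genes, these shares describe the set and do not set it apart from other genes.

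**Figure D1:**
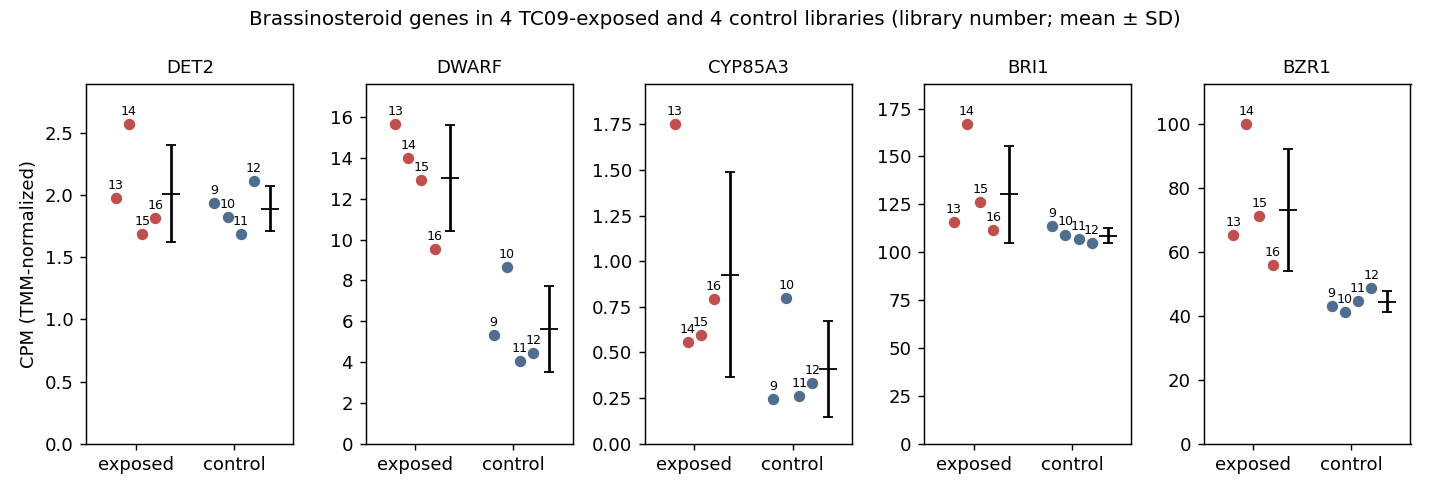
Level of each gene in CPM (read counts scaled to an equal library size by TMM; each panel starts at 0 and has its own scale) in the 4 TC09-exposed libraries (left) and the 4 control libraries (right). Points are libraries with their numbers, and bars are mean ± SD. All exposed points of DWARF and BZR1 lie above the control points, and library 14 is the highest exposed point for DET2, BRI1 and BZR1.

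DET2, known from Arabidopsis, acts early, where it reduces a steroid intermediate on the way to the active hormone. It had 18, 23, 17 and 16 reads in exposed libraries 13 to 16, against 16, 16, 13 and 19 reads in control libraries 9 to 12. In CPM, read counts scaled to an equal library size by the TMM method, this was 2.01 ± 0.393 in the exposed and 1.89 ± 0.178 in the control libraries (SD, n = 4 each). The groups overlapped over most of their range, and only exposed library 14, with 2.57 CPM, lay above the highest control of 2.11 CPM. Its log2 fold change was 0.08 ± 0.223 (SE; 95% interval -0.41 to 0.58), with an adjusted p of 0.848 (edgeR). The p-value of DET2 (0.755, edgeR) was larger than the F value of the fit gives. This SE and interval, which are taken from that F value, are therefore too narrow. Without exposed library 14 the log2 fold change of DET2 was -0.055. At 138 reads over 8 libraries, the data do not tell apart the changes of DET2 within the 95% interval.

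DWARF completes the synthesis of castasterone in tomato, and the dwarf tomato mutant that gave the gene its name lacks this enzyme activity. It had 143, 125, 130 and 84 reads in exposed libraries 13 to 16, against 44, 76, 31 and 40 reads in control libraries 9 to 12. The lowest exposed level was 9.52 CPM in library 16 and the highest control level 8.67 CPM in library 10, so that the groups were separated by a narrow gap. Mean levels of DWARF were 13.02 ± 2.60 CPM in the exposed and 5.62 ± 2.11 CPM in the control libraries (SD, n = 4 each). The difference of 1.21 ± 0.246 on the log2 scale (SE, adjusted p = 0.00742, edgeR) had a 95% interval from 0.66 to 1.75, which is 1.58-fold to 3.37-fold. Of all genes tested, 98.2% had a lower log2 fold change than DWARF. The call held without any 1 library, with log2 fold changes of 1.09 to 1.50 and adjusted p of 0.00205 to 0.0264 (edgeR), the largest ratio being the one without control library 10. Without exposed library 14 the log2 fold change of DWARF was 1.17.

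CYP85A3 belongs to the same P450 family as DWARF and in tomato converts castasterone to brassinolide. It was barely detected, with 16, 5, 6 and 7 reads in exposed libraries 13 to 16, against 2, 7, 2 and 3 reads in control libraries 9 to 12. The groups overlapped, since control library 10 at 0.799 CPM lay above exposed libraries 14, 15 and 16 at 0.560, 0.595 and 0.793 CPM. When all 26833 genes with any read were kept in the model, CYP85A3 had a log2 fold change of 1.14 ± 0.548 (SE; 95% interval -0.05 to 2.34) and an adjusted p of 0.194 (edgeR). An exact two-sided permutation test over the 8 libraries gave p = 0.114. The ratio of summed levels was 2.22 (95% exact binomial interval 1.16 to 4.47, which covers counting error only), and it was 1.56 without exposed library 13. The interval of the model, which takes in the spread between libraries, holds both no change and the estimate for DWARF. These 48 reads do not tell the values within that interval apart.

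The P450 genes could in principle share reads, and nearly all of their reads were unique among the tomato genes. A unique match does not tell which tobacco gene a read came from, so sharing between the P450 genes was not tested. All reads of CYP85A3, DET2 and BRI1 matched a single tomato gene, as did 99.7% of the reads of DWARF and 99.0% of those of BZR1. With unique reads only, the log2 fold changes of DWARF and BZR1 were 1.20 and 0.72 (adjusted p = 0.00737 and 0.0114, edgeR).

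BRI1 is the leucine-rich repeat receptor kinase that binds the hormone outside the cell, and with 8465 reads it was the most deeply counted of the genes. It had 1057, 1493, 1271 and 984 reads in exposed libraries 13 to 16, against 940, 957, 821 and 942 reads in control libraries 9 to 12. Normalized levels of BRI1 were 116, 167, 126 and 111 CPM in exposed libraries 13 to 16, and 114, 109, 107 and 105 CPM in control libraries 9 to 12. Exposed libraries 13, 14 and 15 lay above all controls, library 16 lay among them, and the control libraries were nearly level. On the log2 scale the difference was 0.26 ± 0.126 (SE; 95% interval -0.02 to 0.54), with an adjusted p of 0.166 (edgeR). Without exposed library 14 it was 0.12 (adjusted p = 0.298, edgeR; 0.0911 to 0.298 over all alternatives). An increase of BRI1 above 1.45-fold lay outside its interval.

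BZR1 in Arabidopsis enters the nucleus when brassinosteroid signaling is active and binds the promoters of hormone-responsive genes. It had 594, 894, 717 and 492 reads in exposed libraries 13 to 16, against 356, 361, 344 and 439 reads in control libraries 9 to 12. The exposed libraries ranged from 55.7 to 100.1 CPM and the controls from 41.2 to 48.8 CPM, with no overlap. Mean levels of BZR1 were 73.0 ± 19.1 CPM in the exposed and 44.4 ± 3.21 CPM in the control libraries (SD, n = 4 each). BZR1 thus differed by 0.72 ± 0.161 on the log2 scale (SE; 95% interval 0.36 to 1.07) with an adjusted p of 0.0116 (edgeR), and 93.7% of all genes tested had a lower log2 fold change. Exposed library 14 raised the estimate, and without it the level of the exposed libraries was 64.0 ± 7.76 CPM (SD, n = 3) and the log2 fold change of BZR1 was 0.53, with a smaller adjusted p of 0.00527 (edgeR). These values concern the transcript, whereas the activity of the BZR1 protein is set by its phosphorylation, which was not measured.

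**Figure D2:**
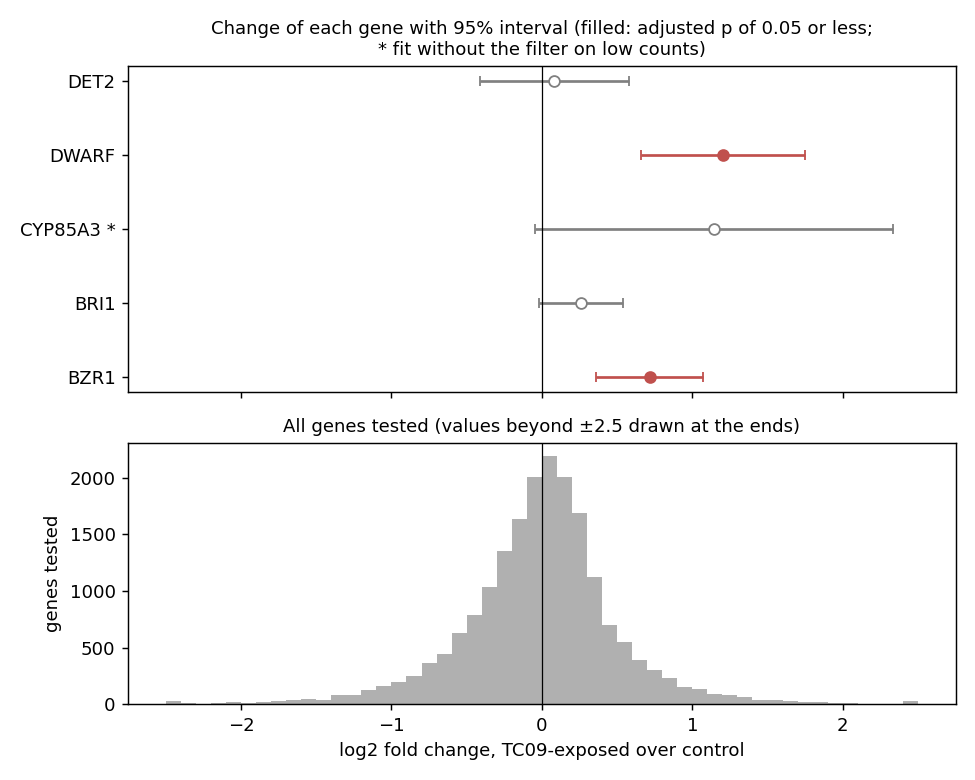
Upper panel, log2 fold change (TC09-exposed over control) of each gene with its 95% interval; filled points passed the test, and the asterisk marks the fit without the filter. The drawn interval of DET2 is too narrow for its p-value. Lower panel, number of genes tested at each log2 fold change. DWARF (1.21) and BZR1 (0.72) lie in the right flank of all genes, whose quartiles are -0.27 and 0.25, and the intervals of DET2, CYP85A3 and BRI1 include 0.

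Spread between libraries differed between the groups. The coefficient of variation of BRI1 was 19.5% among the exposed and 3.67% among the control libraries, and that of BZR1 was 26.2% among the exposed and 7.23% among the control libraries. Without exposed library 14 the exposed values were 6.38% for BRI1 and 12.1% for BZR1, so that much of the larger spread rested on that library. DWARF went the other way, with 20.0% among the exposed and 37.5% among the control libraries, where library 10 was high. These spreads were not tested.

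Levels of different genes were compared in TPM, for which reads are divided by the coding length and scaled to an equal sum in each library. Coding lengths were 774 bases for DET2, 1395 for DWARF, 1404 for CYP85A3, 3624 for BRI1 and 984 for BZR1. The order from the highest to the lowest level was BZR1, BRI1, DWARF, DET2 and CYP85A3 in each of the 8 libraries. The exposed and control means were 73.7 and 41.1 TPM for BZR1, 35.5 and 27.2 TPM for BRI1, 9.19 and 3.62 TPM for DWARF, 2.57 and 2.22 TPM for DET2, and 0.638 and 0.261 TPM for CYP85A3. Signaling genes were thus present at higher TPM than the synthesis genes in both groups. TPM was not scaled by TMM, and the exposed means of each gene exceed the control means by more than the tested fold changes. Exposed library 14 raised the exposed means of BZR1 and BRI1, with 109 and 49.6 TPM. No neighbours in this order overlapped within a group. Some gaps were narrow. In the exposed libraries the lowest BZR1 level was 50.8 TPM (library 16) and the highest BRI1 level 49.6 TPM (library 14). In the control libraries the lowest DWARF level was 2.69 TPM (library 11) and the highest DET2 level 2.58 TPM (library 12). These gaps are between different libraries, whereas the order held within each library. A tomato gene whose tobacco sequence has diverged can lose reads, and the part of this in the order was not tested.

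The ratio of 2 genes within a library does not depend on how the libraries are scaled. Reads of DWARF per coding length were 4.30, 2.96, 4.14 and 2.84 times those of DET2 in exposed libraries 13 to 16, against 1.50, 2.57, 1.29 and 1.15 times in control libraries 9 to 12. Within the signaling chain, reads of BRI1 per coding length were 0.483, 0.453, 0.481 and 0.543 times those of BZR1 in exposed libraries 13 to 16, against 0.716, 0.719, 0.647 and 0.582 times in control libraries 9 to 12. The groups did not overlap in either ratio, with DWARF over DET2 higher and BRI1 over BZR1 lower in the exposed libraries.

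All 10 pairs of the genes were compared in this way with an exact two-sided permutation test over the 70 assignments of the libraries. The log2 ratio differed between exposed and control libraries by 1.18 for DWARF over DET2, 1.00 for DWARF over BRI1, -0.61 for DET2 over BZR1 and -0.44 for BRI1 over BZR1. Each of these 4 pairs reached the smallest p the design allows (exact permutation p = 0.0286), and each kept its sign without any 1 library. Without exposed library 14, DET2 over BZR1 stayed at p = 0.0286 (exact permutation test). DWARF over DET2, DWARF over BRI1 and BRI1 over BZR1 then had p = 0.0571 (exact permutation test). Adjusted over the 10 pairs, 0 pairs passed, and these 4 had an adjusted p of 0.0714 (exact permutation test). With 8 libraries, none could pass unless most of the 10 pairs reached the smallest p, so this count decides little. The 4 pairs are those of a called gene with DET2 or BRI1, and they add no separate support to the 2 calls. The 2 called genes did not differ detectably from each other, with a difference of 0.56 for DWARF over BZR1 (exact permutation p = 0.171). DWARF over CYP85A3 differed by 0.19 (exact permutation p = 0.686), with both genes at higher mean levels in the exposed libraries.

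**Figure D3:**
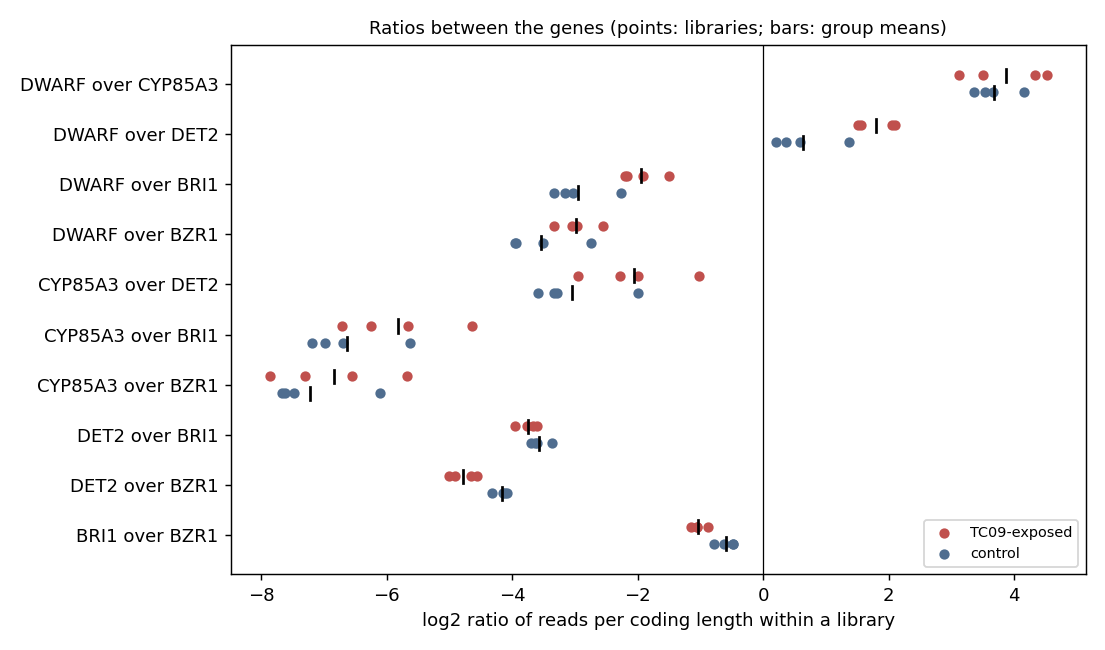
Log2 ratio of reads per coding length for each of the 10 pairs, within each TC09-exposed library (upper points of a pair) and each control library (lower points); black bars are group means. The groups are separate for DWARF over DET2, DWARF over BRI1, DET2 over BZR1 and BRI1 over BZR1, and overlap in the other 6 pairs.

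Genes whose pattern was most like that of each brassinosteroid gene were ranked by the root-mean-square difference of centred log2 CPM over the 8 libraries, with 0 for an identical pattern. For DWARF they were Solyc11g066130 (0.170) and Solyc10g009290 (0.173), which had log2 fold changes of 1.22 and 1.19. For BZR1 they were Solyc06g061280 (0.118) and Solyc09g098170 (0.126), with log2 fold changes of 0.76 and 0.56. Similar fold changes follow from the ranking itself, which took in the libraries of both groups, and are no separate finding. For BRI1 they were Solyc08g079450 (0.0774) and Solyc08g067450 (0.0782), and for DET2 Solyc01g096490 (0.0638) and Solyc11g071430 (0.0650). The sources used here give no names for these Solyc numbers. No brassinosteroid gene was among the closest to another. Among themselves, DET2 and BRI1 had the smallest difference of the 4 genes tested, 0.150, and 5.36% of the genes tested were closer to DET2 than BRI1 was. Both varied little, with a root-mean-square distance from their own mean of 0.168 for DET2 and 0.204 for BRI1. A small difference between them can thus come from small changes without a shared pattern, and DET2 rested on 138 reads. BRI1 and BZR1 differed by 0.246, with 24.7% of the genes tested closer to BRI1. DWARF and BZR1 differed by 0.476, with 5.73% closer to DWARF. Seen from BZR1 this was no close likeness, since the median difference of all genes from BZR1 was 0.478. DET2 and BZR1 differed by 0.339, with 55.5% closer to DET2. DWARF differed from BRI1 by 0.595 and from DET2 by 0.677, with 18.5% and 35.9% of the genes tested closer to DWARF.

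**Figure D4:**
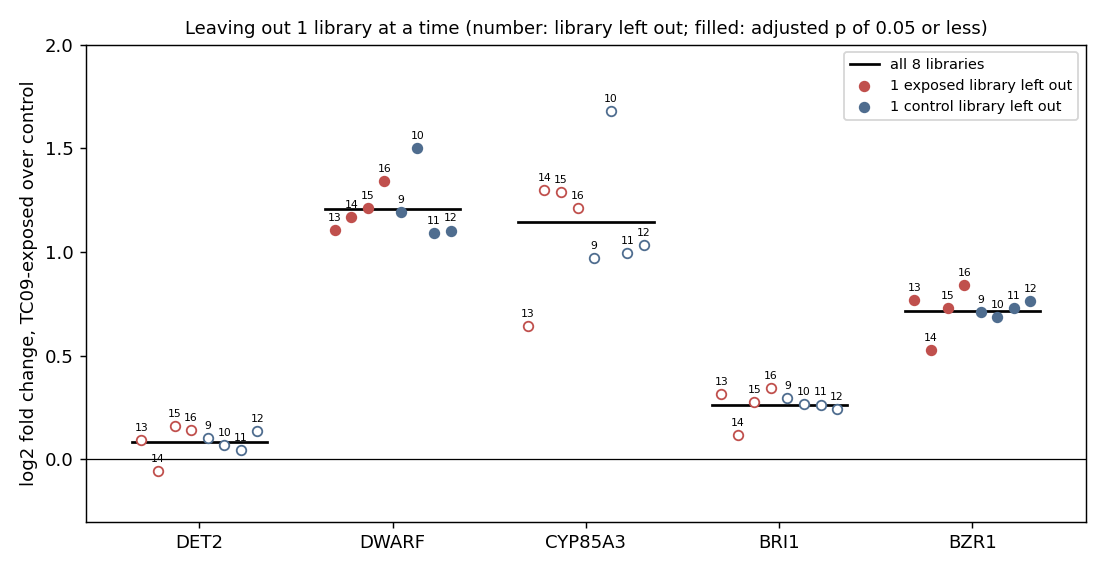
Log2 fold change (TC09-exposed over control) of each gene with all 8 libraries (black line) and with 1 library left out (points, numbered by that library; red for exposed, blue for control; filled where the adjusted p was 0.05 or less). DWARF stays between 1.09 and 1.50 and BZR1 between 0.53 and 0.84, all filled, while DET2 crosses 0 without library 14.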

How the data were processed

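Shoot-tip RNA of 4 TC09-exposed and 4 control libraries was analysed from the tables that the authors deposited. Read cleaning, alignment to tomato and counting were done by the authors in CLC Genomics Workbench (version 10) with its defaults, per the methods of the study. Gene annotation came from the Sol Genomics Network, and its release number is not given in the sources used. The authors deposited whole-number counts (total and unique gene reads) and TPM for each coding sequence, 1 file per library. TPM recomputed from the counts differed from the deposited TPM by at most 1.89e-10.

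Differences in total gene reads were tested in edgeR (version 4.0.16, R version 4.3.3): filterByExpr defaults (minimum count 10, minimum total 15), TMM, a quasi-likelihood fit with the group as its only term, and Benjamini-Hochberg adjustment. Of 34725 genes, 19325 were tested. Standard errors were obtained as the size of the log2 fold change over the root of its F value, and 95% intervals use the t quantile. For DET2 the edgeR p-value is larger than its F value gives, so its SE and interval are too narrow. Log2 fold changes use a prior count of 0.125. Ratios between genes had 0.5 added to each count. CYP85A3, below the filter, comes from the fit without it. The procedure was tested on simulated data.

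The 5 genes and the tests were chosen with earlier results of these data known. Names of the 5 genes were given with their Solyc numbers. All 5 are named, and for each that passed the filter the 2 genes of most similar pattern, ranked on log2 CPM with a prior count of 2. No further brassinosteroid gene is named with a Solyc number in the sources used here, and no marker of shoot-tip tissue is, so neither a wider pathway list nor a tissue check was made. No sequence was printed because no file used here holds one. Alternatives were testing all genes with a read, requiring a mean of 50 reads, RLE, total library size, leaving out the 2 genes over 1% of a library, DESeq2 (version 1.42.0), limma-voom (limma version 3.58.1), unique reads, a prior count of 2, an adjusted p of 0.01 and leaving out each library. Labels share no replicate numbers between groups, so no pairing was fitted.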

Additional observations from a re-analysis of the deposited data

Results flagged for a closer look

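The CYP85A3 level of control library 10, 0.799 CPM, lay far from the other 3 controls. It rests on 7 reads. For normally distributed values such a distance is found by chance in about 1 in 20 groups, with 10 groups checked here. Read counts as low as these need not keep that rate. Without this library the log2 fold change of CYP85A3 was 1.68 (adjusted p = 0.0937, edgeR; 0.0937 to 0.522 over all alternatives).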

How the results depend on the processing

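With 0.05 as the threshold, calls and directions of DWARF and BZR1 were the same under all 17 alternatives computed for each, with adjusted p of 9.28e-05 to 0.0264 for DWARF and 0.000883 to 0.0408 for BZR1 (edgeR, DESeq2 or limma-voom). Among the alternatives of every gene, the prior count of 2 altered only the fold change and kept the p-value, so no call could move under it. At an adjusted p of 0.01 or less, 1 of the 5 genes (DWARF) and 1732 of all genes were called. DET2 changed direction without exposed library 14 (log2 fold change -0.055, against at most 0.16 without another library) and passed under none of its 16 alternatives. BRI1 passed under none of 17 and CYP85A3 under none of 15, with log2 fold changes of 0.64 (without exposed library 13) to 1.68. With a mean of at least 50 reads, DET2 and CYP85A3 gave no value. Leaving out 1 library gave 2636 (control library 9) to 5438 (exposed library 14) called genes, with 2648 without control library 11 and 2741 without exposed library 13. Scaling by total library size called 3057 genes higher and 1663 lower, against 1847 and 2317 with TMM, with a median log2 fold change of 0.11, against 0.01, over the genes tested, and the log2 fold changes became 1.32 for DWARF, 0.83 for BZR1, 0.37 for BRI1 and 0.18 for DET2. The pairs passing after adjustment remained 0 of 10 with a count of 1 added and with unique reads, where the smallest p the design allows again limited the test. The 138 reads of DET2 and 48 of CYP85A3 limit what can be read from them.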

Other observations

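The library with the highest DWARF level in each group was also the one with the highest CYP85A3 level, exposed library 13 with 15.7 and 1.75 CPM and control library 10 with 8.67 and 0.799 CPM. Exposed library 16 had the lowest levels of DWARF, BRI1 and BZR1 in its group (9.52, 111 and 55.7 CPM). BRI1 and BZR1 placed the exposed libraries in the same order, with 14 above 15, 13 and 16, whereas in the controls library 9 was highest for BRI1 (114 CPM) and library 12 for BZR1 (48.8 CPM). These orders were noticed in the data and were not tested.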
